A study of Mus musculus with 6 samples.

Results

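The mitochondrially encoded transcripts of primary mouse neurons were compared between cultures that received Kcna1-dCas9A and cultures that received Ctrl-dCas9A. The members are the genes whose symbol starts with mt-, which gave 37 of the 50508 gene symbols in the deposited files, with 13 protein-coding, 2 rRNA and 22 tRNA genes. In both groups a lentivirus delivers dCas9-VP160, a Cas9 without nuclease activity joined to a domain that activates transcription, driven by the Ef1alpha promoter, which is not restricted to neurons. The Ctrl-dCas9A cultures carry a guide against LacZ (sgLacZ), and the Kcna1-dCas9A cultures carry the guide sg19 against the *Kcna1* promoter (sgKcna1), with 3 libraries per group. The cells came from newborn C57Bl/6J pups. The sample labels name hippocampus and the study's methods name cortex, and the methods give different times in culture for the RNA extraction. The labels do not say whether the libraries of a group came from separate cultures, so that p-values measure the spread between these libraries, which may be technical.

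Mitochondrial DNA is a small circular genome whose genes have no introns. It is copied into long transcripts from both strands, from which the tRNAs are cut out, and this leaves the mRNAs and rRNAs between them as separate molecules. The proteins are subunits of respiratory complexes I, III and IV and of the ATP synthase, on which neurons depend for most of their ATP. The rRNAs form the core of the mitochondrial ribosome. Mitochondrial mRNAs other than that of mt-Nd6 carry short poly(A) tails, which in several cases complete the stop codon, whereas mature tRNAs and rRNAs carry no such tail or only a few added bases. The libraries here were primed on poly(A) and read from the 3′ end, so that a value reflects priming as well as abundance, and values of different genes were not ranked against each other.

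The values are whole numbers scaled to a common library total, and the read depth is unknown. Totals lay between 999047 and 999717, and *Kcna1* was listed at 16 in each Ctrl-dCas9A library and 68, 47 and 65 in Kcna1-dCas9A (log2 fold change 1.83, standard error, SE, 0.16, limma adjusted p = 0.034). It did not pass under a replicate block (limma adjusted p = 0.11), without a filter on low values (limma adjusted p = 0.089) or with any library other than Ctrl-dCas9A replicate 3 left out. Ctrl-dCas9A replicate 3 stood apart from its group. Over genes averaging 10 or more in the pair, its log2 values correlated with those of the other Ctrl-dCas9A libraries at 0.955 and 0.961 (Pearson), and with those of the Kcna1-dCas9A libraries at 0.956 to 0.973. Its *Kcna1* value of 16 is that of its own group. Counts of genes that pass, and the values of named genes that pass without this library, are therefore also given without it. All 8 neuronal markers were above 0, and their sum was 4186 to 4925 in Ctrl-dCas9A and 5311 to 6719 in Kcna1-dCas9A. This direction rested on Tubb3, a neuronal tubulin, at 1862, 1752 and 2605 in Ctrl-dCas9A, compared with 3855, 3221 and 4591 in Kcna1-dCas9A. The sum of the other 7 neuronal markers, formed after the values were seen, was 2320 to 2519 in Ctrl-dCas9A and 2090 to 2153 in Kcna1-dCas9A, which rested on Map2 in turn, since the remaining 6 overlapped at 681 to 706 and 624 to 711. The neuronal markers thus had no common direction, with Map2, Snap25 and Gad1 lower and Tubb3 and Slc17a7 higher without overlap. The summed astrocyte markers (8 of 8 above 0) were at 765 to 867 and 560 to 586, the oligodendrocyte lineage markers (7 of 8, Mog at 0) at 66 to 98 and 40 to 44, and the microglia markers (6 of 8, Tmem119 and P2ry12 at 0) at 22 to 25 and 53 to 72. Vascular and meningeal markers (7 of 8, Cdh5 at 0) were at 10 to 16 and 6 to 12. Except for the vascular and meningeal markers and the 6 remaining neuronal ones, these sums did not overlap between the groups. Their part in the results below was not tested. Single glial markers did not all follow the sums. Mbp of the oligodendrocyte lineage was at 3, 3 and 2 in Ctrl-dCas9A and 7, 4 and 7 in Kcna1-dCas9A, opposite to its list. The groups overlapped for Gfap, Aldh1l1 and S100b (astrocytes), Sox10 and Cspg4 (oligodendrocyte lineage), and C1qc and Csf1r (microglia). In such bulk samples, fewer cells of a type and less RNA per cell cannot be told apart.

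Of the 37 genes, 20 were above 0 in at least 1 library and 16 in all 6. All 17 others were listed at 0 throughout. Among the 13 protein-coding genes the 6 at 0 were mt-Co2 (a subunit of complex IV), mt-Atp8 and mt-Atp6 (of the ATP synthase), mt-Co3 (of complex IV), mt-Nd3 and mt-Nd4l (of complex I). They lie next to each other on the mitochondrial genome, from chrM:7013-7696 for mt-Co2 to chrM:9877-10173 for mt-Nd4l (GENCODE vM1 of NCBIM37). The 7 protein-coding genes on either side of this stretch were above 0 in every library. mt-Nd4l overlaps 1 of them, mt-Nd4 (chrM:10167-11544), with no tRNA gene between. A 0 for mt-Nd4l thus does not show that this part of the transcript was absent.

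The stretch from mt-Co2 to mt-Nd4l has a nearly identical copy in the nuclear genome. In NCBIM37 the mitochondrial bases chrM:6390-11042 aligned to the minus strand of chr1:24618374-24623027 with 99.9% identity, with 2 mismatches and 1 gap opening in 4654 aligned columns. All 6 protein-coding genes at 0 lie wholly inside this copy, and so do 5 tRNA genes (mt-Ts1, mt-Td, mt-Tk, mt-Tg and mt-Tr), all at 0 as well. Of the 17 tRNA genes outside it, 6 were at 0 (mt-Tf, mt-Tw, mt-Tn, mt-Ty, mt-Th and mt-Ts2). Of these 6, mt-Ty, mt-Th and mt-Tn lie in other nuclear alignments, with 100%, 82.1% and 78.9% of the 75-base windows centred in the gene found there unaltered. For mt-Tw this was 10.4%, and for mt-Tf and mt-Ts2 0%. Among the 11 with values the share ran from 0% to 27.5%. Another 2 protein-coding genes lie partly inside. For mt-Co1, 31.3% of the gene is covered, including its last 300 bases, and for mt-Nd4 63.6%, with none of its last 300 bases in a 75-base window that occurs unaltered in a nuclear alignment. The annotated nuclear genes inside the chromosome 1 copy, Gm10222 (chr1:24619243-24619539) and Gm10925 (chr1:24620814-24621627), were listed at 0 in all libraries and at 1 in 2 Kcna1-dCas9A libraries, respectively. How the authors treated reads that match more than 1 place is not given in the sources used here, and its part in the zeros was not tested.

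**Figure D1:**
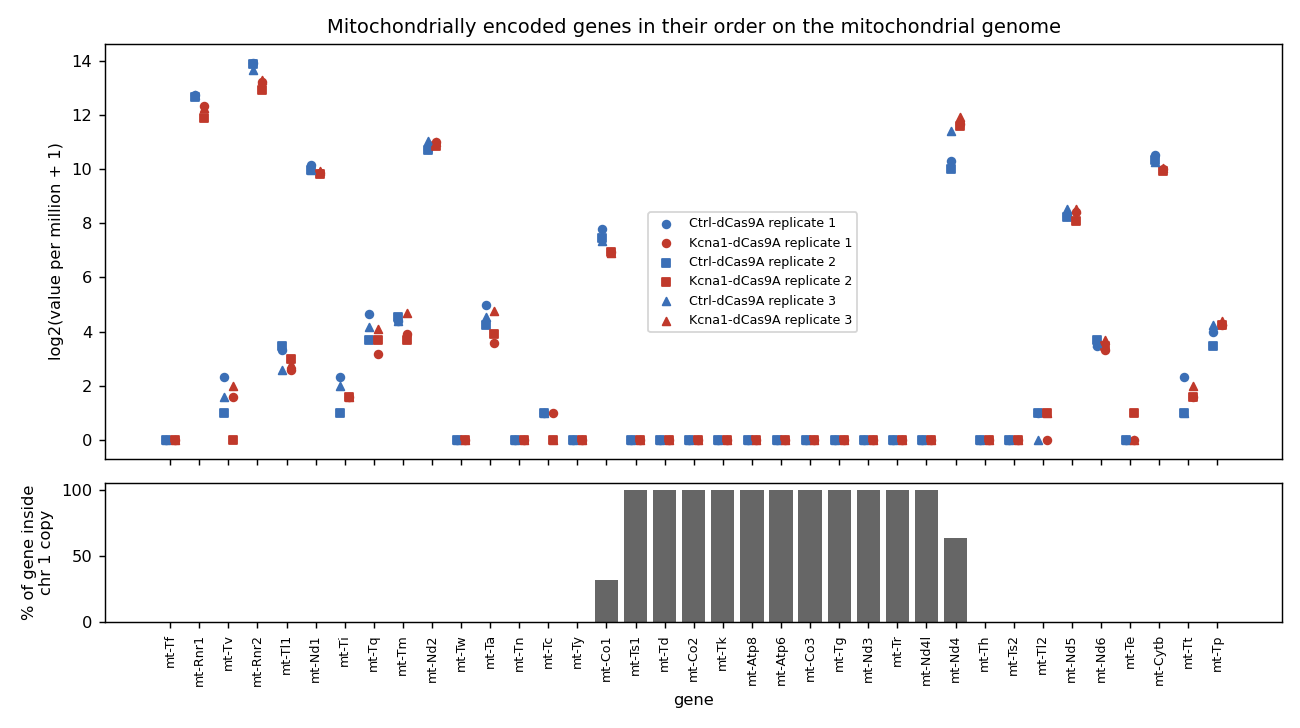
The upper panel plots log2(value + 1) of the 37 mitochondrially encoded genes in each library, in gene order (blue, Ctrl-dCas9A; red, Kcna1-dCas9A; symbols mark replicates), and the lower panel the percentage of each gene inside the copy on chromosome 1. Every gene wholly inside the copy is at 0, and mt-Rnr1, mt-Rnr2, mt-Nd1, mt-Co1 and mt-Cytb lie lower, and mt-Nd4 higher, in all 3 Kcna1-dCas9A libraries.

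The 3′ ends of the annotated genes show what a read from there has to tell apart. Where the mRNAs themselves end was not mapped. The last 30 bases of a gene at 0, mt-Atp6, and of a gene with values, mt-Cytb, are set beside nuclear counterparts (NCBIM37, strand of the transcript). Capitals mark the encoded stop letters in the mitochondrial sequence and the differences from it in the nuclear sequence.
mt-Atp6, chrM:8578-8607, plus strand: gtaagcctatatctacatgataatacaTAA
Copy of mt-Atp6, chr1:24620810-24620839, minus strand: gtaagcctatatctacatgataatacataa
mt-Cytb, chrM:15259-15288, plus strand: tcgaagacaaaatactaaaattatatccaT
Copy of mt-Cytb, chr4:79651007-79651036, plus strand: tTgaagacaaaataTtaaaattatatccat
Further copy of mt-Cytb, chr5:7276844-7276873, plus strand: tTgaagacaaaatactaaaattatatccat
The end of mt-Atp6 has no difference from its copy on chromosome 1. That of mt-Cytb has 2 from its copy on chromosome 4, where the whole alignment (2875 columns) has 93.0% identity, and 1 from that on chromosome 5, where the alignment has 83.6% identity. The ends of mt-Co1 and mt-Nd4, the genes that the chromosome 1 copy covers in part, follow.
mt-Co1, chrM:6843-6872, plus strand: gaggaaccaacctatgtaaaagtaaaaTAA
Copy of mt-Co1, chr1:24622545-24622574, minus strand: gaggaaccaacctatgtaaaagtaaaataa
Further copy of mt-Co1, chr2:22443623-22443652, minus strand: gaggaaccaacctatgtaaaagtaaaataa
mt-Nd4, chrM:11515-11544, plus strand: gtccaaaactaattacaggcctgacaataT
The end of mt-Co1 has no difference from either copy. In mt-Cytb, mt-Nd4 and mt-Co3 the gene encodes only the first T of the stop codon, which the poly(A) tail completes. The annotated sequences of the other 10 protein-coding genes end in a full stop codon. In mt-Nd1 and mt-Nd2 part of that codon lies in the following tRNA gene, mt-Ti (chrM:3706-3774) and mt-Tw (chrM:4950-5016), respectively. The last 30 bases of mt-Nd4 have no counterpart in the chromosome 1 copy, but recur without a difference in a short copy at chr2:69193693-69193722.

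None of the 20 genes above 0 passed an adjusted p of 0.05 between the groups (0 higher and 0 lower, limma on log2(value + 1) with Benjamini-Hochberg adjustment over all 19504 genes above 0 in at least 1 library), where 1.16% of all genes tested passed, 0.349% higher and 0.810% lower. With an unadjusted p under 0.05 there were 5, namely mt-Rnr1, mt-Rnr2, mt-Co1, mt-Cytb and mt-Nd4, against 23.2% of all genes. The groups did not overlap for 6, of which mt-Rnr1, mt-Rnr2, mt-Co1, mt-Cytb and mt-Nd1 were lower and mt-Nd4 was higher in Kcna1-dCas9A. Over all genes tested, 13.3% were lower without overlap and 8.98% higher. The number that passed depended on the scaling, the filter on low values and Ctrl-dCas9A replicate 3. Rescaled to the total of all genes other than the mitochondrially encoded ones and Gm42418, 5 passed (mt-Rnr1, mt-Rnr2, mt-Co1 and mt-Cytb lower, mt-Nd4 higher), where 9.26% of all genes did, 3.40% higher and 5.86% lower. With median-of-ratios factors mt-Co1 passed as lower and mt-Nd4 as higher, against 8.82% of all genes, 4.94% higher and 3.89% lower. With the fit limited to the 13604 genes averaging 1 or more, 4 passed (mt-Rnr1, mt-Rnr2, mt-Co1 and mt-Cytb, all lower), against 11.3% of those genes, 4.18% higher and 7.17% lower. Without Ctrl-dCas9A replicate 3, 4 passed (mt-Rnr2, mt-Co1 and mt-Cytb lower, mt-Nd4 higher), against 14.2% of all genes, 6.06% higher and 8.12% lower.

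Both rRNAs were lower in Kcna1-dCas9A, short of the adjusted threshold. mt-Rnr1, the 12S rRNA of the small mitochondrial ribosomal subunit (chrM:70-1024, plus strand), was listed at 6849, 6543 and 6737 in Ctrl-dCas9A, compared with 5175, 3742 and 4827 in Kcna1-dCas9A. Every Kcna1-dCas9A library lay below every Ctrl-dCas9A library. The means were 6710 ± 155 and 4581 ± 747 (SD, n = 3), with a log2 fold change of -0.56 (SE 0.14, limma adjusted p = 0.067). Under the alternatives the adjusted p ranged from 0.023 to 0.21.

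mt-Rnr2, the 16S rRNA of the large subunit (chrM:1094-2675, plus strand), was at 15484, 15001 and 12842 in Ctrl-dCas9A, compared with 9497, 7653 and 9896 in Kcna1-dCas9A. The groups did not overlap, and Ctrl-dCas9A replicate 3 was the lowest of its group. The log2 fold change was -0.68 (SE 0.14, limma adjusted p = 0.056, 0.018 to 0.18 under the alternatives). Without Ctrl-dCas9A replicate 3 it was -0.77 at a limma adjusted p of 0.033. The mt-Rnr2 to mt-Rnr1 ratio within a library was 2.26, 2.29 and 1.91 in Ctrl-dCas9A and 1.84, 2.05 and 2.05 in Kcna1-dCas9A, and overlapped between the groups. Mature rRNAs have little poly(A), and the genes hold stretches of A that an oligo(dT) primer could match. The longest run of A is shown in capitals for each.
mt-Rnr1, chrM:693-722, plus strand: tcagcaaaccctAAAAAggtattaaagtaa
mt-Rnr2, chrM:1477-1506, plus strand: ttaaacttgctAAAAAAAcaacaaaatcaa
Runs of 6 or more A on the transcript strand occurred 4 times in mt-Rnr2 and 0 times in mt-Rnr1. Such runs were also present in mt-Nd1, mt-Nd2, mt-Co1, mt-Nd4, mt-Nd5, mt-Tr and mt-Th. Whether reads came from them was not tested.

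Summed, the rRNAs stood at 22333, 21544 and 19579 in Ctrl-dCas9A, compared with 14672, 11395 and 14723 in Kcna1-dCas9A. This is 1.96% to 2.23% of the library in Ctrl-dCas9A and 1.14% to 1.47% in Kcna1-dCas9A. The ratio of group means was 0.643, and the groups were separate (p = 0.1 in a two-sided exact permutation test, which cannot go lower with 3 libraries against 3). All 37 genes together made up 2.71% to 2.85% of the library in Ctrl-dCas9A and 1.87% to 2.32% in Kcna1-dCas9A (ratio of means 0.776, exact permutation p = 0.1). Gm42418, a gene outside the mitochondrial genome that takes a large share of each library, held 16.3% to 19.5% and 15.3% to 20.2%, and overlapped between the groups.

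**Figure D2:**
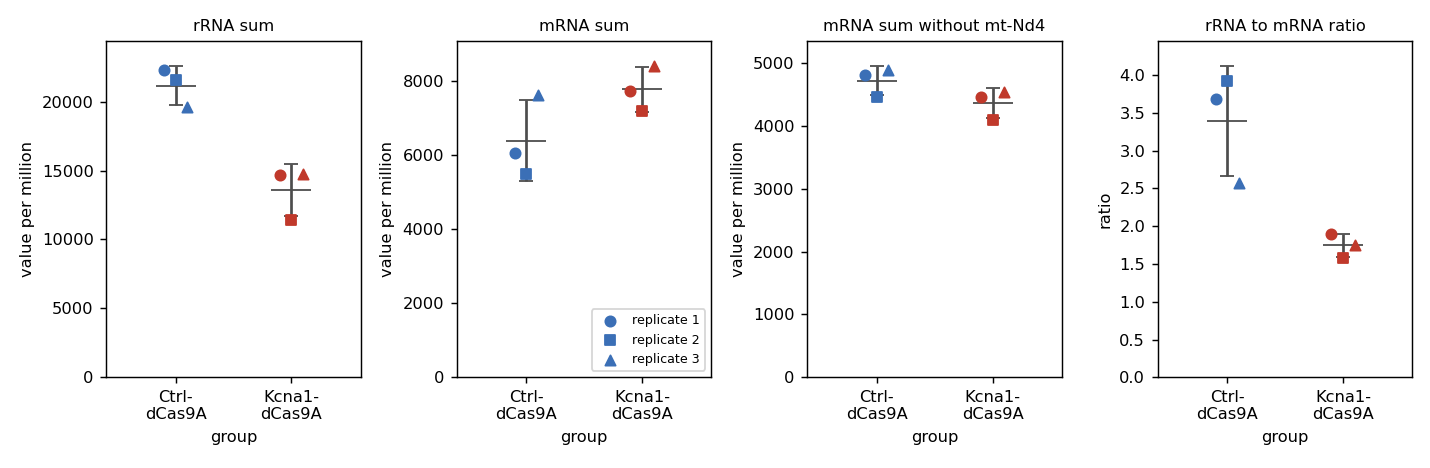
Summed scaled values of the rRNAs, of the mRNAs with and without mt-Nd4, and the rRNA to mRNA ratio are plotted for each library (blue, Ctrl-dCas9A; red, Kcna1-dCas9A; symbols mark replicates), with the mean (line) and SD (bars, n = 3). The rRNA sums and the ratio do not overlap between the groups, while both mRNA sums do.

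The mRNAs of complex I, the NADH dehydrogenase that feeds electrons into the chain, differed in sign. mt-Nd4 (chrM:10167-11544, plus strand), a proton-pumping membrane subunit, was listed at 1248, 1023 and 2726 in Ctrl-dCas9A, compared with 3280, 3095 and 3852 in Kcna1-dCas9A. All Kcna1-dCas9A libraries lay above all Ctrl-dCas9A libraries, and Ctrl-dCas9A replicate 3 was closer to the Kcna1-dCas9A libraries than to its own group. The means were 1666 ± 925 and 3409 ± 395 (SD, n = 3), with a log2 fold change of 1.16 (SE 0.34, limma adjusted p = 0.099, 0.017 to 0.33 under the alternatives). Without Ctrl-dCas9A replicate 3 the log2 fold change was 1.59 (SE 0.14, limma adjusted p = 0.017), where 14.2% of all genes passed. As a share of the mitochondrial mRNA values, mt-Nd4 was at 20.6%, 18.6% and 35.8% in Ctrl-dCas9A, against 42.4%, 43.0% and 45.9% in Kcna1-dCas9A (exact permutation p = 0.1).

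mt-Nd2 (chrM:3914-4951), another membrane subunit, was at 1692, 1671 and 2118 in Ctrl-dCas9A, compared with 2059, 1839 and 2027 in Kcna1-dCas9A, where the groups overlapped through Ctrl-dCas9A replicate 3. Its log2 fold change was 0.12 (SE 0.12, limma adjusted p = 0.51), with 0.23 without Ctrl-dCas9A replicate 3 and 0.07 and 0.06 without replicates 1 and 2 of that group. mt-Nd1 (chrM:2751-3707), next to the quinone site, was at 1133, 1009 and 1006 and at 915, 900 and 966, without overlap, but with a log2 fold change of only -0.18 (SE 0.09, limma adjusted p = 0.27). The values of mt-Nd5 (chrM:11742-13565), a further membrane subunit, were 304, 298 and 363 and 337, 270 and 366, with a log2 fold change of 0.0061 (SE 0.14, limma adjusted p = 1). mt-Nd6 (chrM:13552-14070) is the only protein-coding gene on the minus strand, and its mRNA lacks a poly(A) tail. It was listed at 10, 12 and 11 and at 9, 10 and 12, a log2 fold change of -0.09 (SE 0.18, limma adjusted p = 0.77), which ran from -0.19 to -0.0017 with a library left out. Its 3′ end overlaps that of mt-Nd5 on the other strand, and although the study's methods give stranded reads, no source used here says whether counting used the strand, so that the values of both in the overlap are uncertain.

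mt-Cytb (chrM:14145-15288), cytochrome b of complex III, was at 1455, 1301 and 1234 in Ctrl-dCas9A, compared with 1012, 961 and 1057 in Kcna1-dCas9A. The groups did not overlap, and the log2 fold change was -0.39 (SE 0.09, limma adjusted p = 0.064, 0.033 to 0.21 under the alternatives), and -0.45 without Ctrl-dCas9A replicate 3 (limma adjusted p = 0.033). mt-Co1 (chrM:5328-6872), the catalytic subunit of complex IV, was at 218, 176 and 162 and at 122, 123 and 118, also without overlap. Its log2 fold change was -0.60 (SE 0.12, limma adjusted p = 0.056, 0.016 to 0.18 under the alternatives), and -0.69 without that library (limma adjusted p = 0.030). Its 3′ end lies in the chromosome 1 copy, and the part of the copy in its values was not tested. No value above 0 was listed for the other complex IV mRNAs or for the ATP synthase mRNAs.

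**Figure D3:**
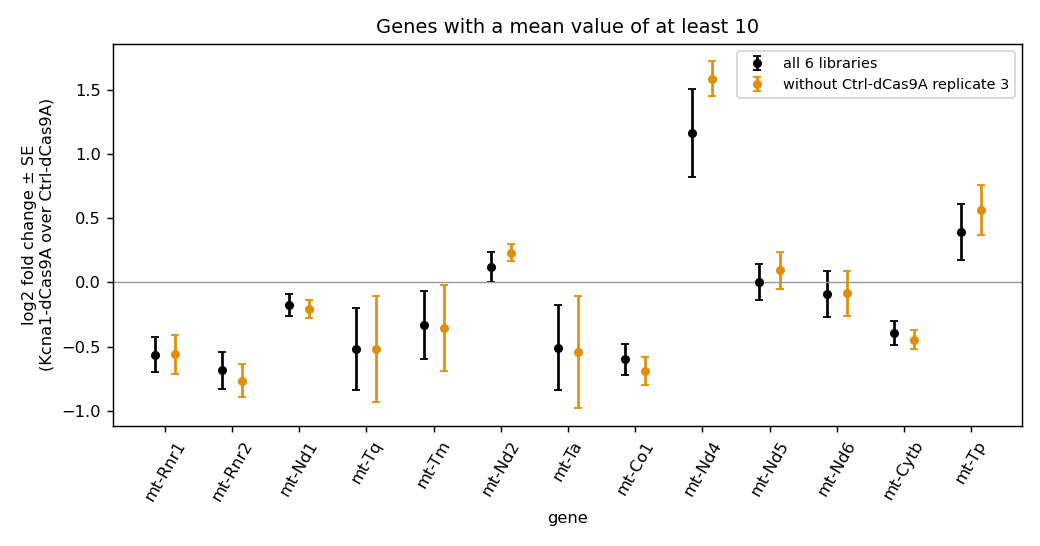
Log2 fold changes (Kcna1-dCas9A over Ctrl-dCas9A) with standard errors from limma are plotted for the 13 mitochondrially encoded genes averaging 10 or more, with all 6 libraries (black) and without Ctrl-dCas9A replicate 3 (orange). mt-Nd4 lies at 1.16 and 1.59, whereas mt-Rnr2 lies at -0.68 and -0.77.

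Added together, the mRNAs of Kcna1-dCas9A (7734, 7198 and 8398) overlapped with those of Ctrl-dCas9A (6060, 5490 and 7620), with a ratio of means of 1.22 (exact permutation p = 0.2). This direction rested on mt-Nd4. Without mt-Nd4 the sums were 4812, 4467 and 4894 in Ctrl-dCas9A and 4454, 4103 and 4546 in Kcna1-dCas9A, a ratio of means of 0.925 (exact permutation p = 0.2). The rRNA to mRNA ratio within a library does not depend on the scaling of the library. It was 3.69, 3.92 and 2.57 in Ctrl-dCas9A and 1.90, 1.58 and 1.75 in Kcna1-dCas9A, with means of 3.39 ± 0.72 and 1.74 ± 0.16 (SD, n = 3). The groups did not overlap (exact permutation p = 0.1). Leaving mt-Nd4 out of the mRNAs gave 4.64, 4.82 and 4.0 against 3.29, 2.78 and 3.24, again without overlap (exact permutation p = 0.1).

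The 22 tRNAs, which carry amino acids to the mitochondrial ribosome, showed no separation of the groups. Their sum was 113, 77 and 89 in Ctrl-dCas9A and 63, 69 and 102 in Kcna1-dCas9A, with overlap (ratio of means 0.839, exact permutation p = 0.4). Its log2 ratio of -0.25 became -0.09 without Ctrl-dCas9A replicate 1, -0.12 without Kcna1-dCas9A replicate 1 and -0.49 without Kcna1-dCas9A replicate 3. Above 0 in all libraries were 7 (mt-Tl1, mt-Ti, mt-Tq, mt-Tm, mt-Ta, mt-Tt and mt-Tp), above 0 in some were 4 (mt-Tv, mt-Tc, mt-Tl2 and mt-Te, at no more than 4), and 11 were at 0. The groups overlapped for each of the 11 tRNAs with a value above 0, where 22.2% of all genes tested did not overlap. The 11 at 0 throughout could not separate the groups. The alanine tRNA mt-Ta was at 31, 18 and 22 and at 11, 14 and 26, the glutamine tRNA mt-Tq at 24, 12 and 17 and at 8, 12 and 16, and the methionine tRNA mt-Tm at 20, 22 and 20 and at 14, 12 and 25. The proline tRNA mt-Tp was at 15, 10 and 18 and at 18, 18 and 20. Log2 fold changes of these 4 lay between -0.52 and 0.39, with adjusted p from 0.32 to 0.51 from limma. With a library left out they ran from -0.84 to -0.26 for mt-Ta, -0.75 to -0.28 for mt-Tq, -0.63 to -0.13 for mt-Tm and 0.17 to 0.57 for mt-Tp. mt-Ta, mt-Tq and mt-Tp are encoded on the minus strand. Mature tRNAs are not polyadenylated, and reads of unprocessed precursors cannot be told apart from them here.

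Nuclear genes that maintain, transcribe and process mitochondrial DNA were listed as a group of 65 symbols, of which 63 were in the files and 62 above 0 in at least 1 library. Of these, 0 passed an adjusted p of 0.05 from limma, against 1.16% of all genes. At an unadjusted p under 0.05 there were 4 higher and 11 lower, while 9.59% of all genes were higher and 13.6% lower at that p. Without Ctrl-dCas9A replicate 3, 5 passed, 4 higher (Lrpprc, Mrpl12, Nsun4 and Tbrg4) and 1 lower (Dhx30), where 14.2% of all genes did. The median log2 fold change was -0.16, and -0.02 over all genes tested. Among the 28 listed genes averaging 10 or more it was -0.03, and -0.06 over all genes at that level. The medians were not tested against each other. Of the 62, 4 were higher and 12 lower without overlap of the groups, where 8.98% of all genes were higher and 13.3% lower. The highest among those averaging 10 or more was that of Lrpprc, whose product stabilizes mitochondrial mRNAs. Lrpprc was at 141, 152 and 368 in Ctrl-dCas9A, compared with 442, 350 and 496 in Kcna1-dCas9A, with Ctrl-dCas9A replicate 3 inside the range of the other group (log2 fold change 1.09, SE 0.36, limma adjusted p = 0.13, 0.019 to 0.39 under the alternatives), and without that replicate the log2 fold change was 1.53 (limma adjusted p = 0.019). The lowest was that of Tfam, which packages mitochondrial DNA and starts its transcription, at 43, 33 and 32 and at 25, 22 and 20 (log2 fold change -0.66, SE 0.16, limma adjusted p = 0.067, 0.035 to 0.21 under the alternatives).

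Some further genes of this group were picked out after their values were seen. Slirp, the partner of Lrpprc, was at 67, 58 and 78 in Ctrl-dCas9A, compared with 53, 45 and 43 in Kcna1-dCas9A, without overlap and opposite in sign to Lrpprc (log2 fold change -0.51, SE 0.15, limma adjusted p = 0.092, 0.043 to 0.27 under the alternatives). Polrmt, the mitochondrial RNA polymerase, was at 6, 9 and 9 and at 13, 4 and 10, with overlap. Mrpl12, a protein of the mitochondrial ribosome, was at 109, 118 and 166 and at 176, 194 and 232 (log2 fold change 0.63, limma adjusted p = 0.096). Without Ctrl-dCas9A replicate 3 Mrpl12 was at 0.81 (limma adjusted p = 0.033). Tbrg4, of the FASTKD family of mitochondrial RNA-binding proteins, was at 23, 25 and 38 and at 47, 50 and 48, without overlap. Its log2 fold change was 0.77 (SE 0.19, limma adjusted p = 0.070, 0.017 to 0.24 under the alternatives), and 0.98 without Ctrl-dCas9A replicate 3 (limma adjusted p = 0.017). Ppargc1a, a nuclear coactivator of mitochondrial biogenesis, was at 37, 32 and 37 and at 42, 33 and 31, with overlap. Nsun4, listed for rRNA modification and ribosome assembly, was at 11, 12 and 16 and at 18, 19 and 20 (limma adjusted p = 0.13). Dhx30, listed likewise, was at 56, 63 and 42 and at 38, 42 and 35, with overlap (limma adjusted p = 0.16). Without Ctrl-dCas9A replicate 3 Nsun4 was at 0.68 on the log2 scale (limma adjusted p = 0.033) and Dhx30 at -0.62 (limma adjusted p = 0.036).

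The 20 genes listed for abundant nuclear-encoded mitochondrial proteins, such as outer membrane pores, chaperones and matrix enzymes, were all above 0. Again 0 passed an adjusted p of 0.05 from limma, against 1.16% of all genes. At an unadjusted p under 0.05, 11 were lower and 0 higher, against 13.6% and 9.59% of all genes. The groups did not overlap for 10, all lower, where 13.3% of all genes were lower without overlap and 8.98% higher. Leaving out Ctrl-dCas9A replicate 3 let 7 pass, all lower, where 8.12% of all genes passed as lower. The median log2 fold change of this list was -0.40, and -0.44 for the 18 averaging 10 or more. Among these 18 the lowest was Slc25a5, an ADP/ATP carrier, at 34, 26 and 22 in Ctrl-dCas9A, compared with 11, 13 and 12 in Kcna1-dCas9A (log2 fold change -1.11, SE 0.19, limma adjusted p = 0.051, 0.010 to 0.14 under the alternatives), and its log2 fold change was -1.24 without Ctrl-dCas9A replicate 3 (limma adjusted p = 0.023). The highest of the 18 was Immt, which shapes the cristae, at 103, 97 and 125 and at 134, 103 and 138 (log2 fold change 0.20, SE 0.15, limma adjusted p = 0.50, and 0.12 to 0.33 on the log2 scale with a library left out). Cs, citrate synthase of the matrix, was at 58, 42 and 41 and at 31, 31 and 30, at a limma adjusted p of 0.080 (0.044 to 0.23 under the alternatives), and was chosen after its values were seen.

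**Figure D4:**
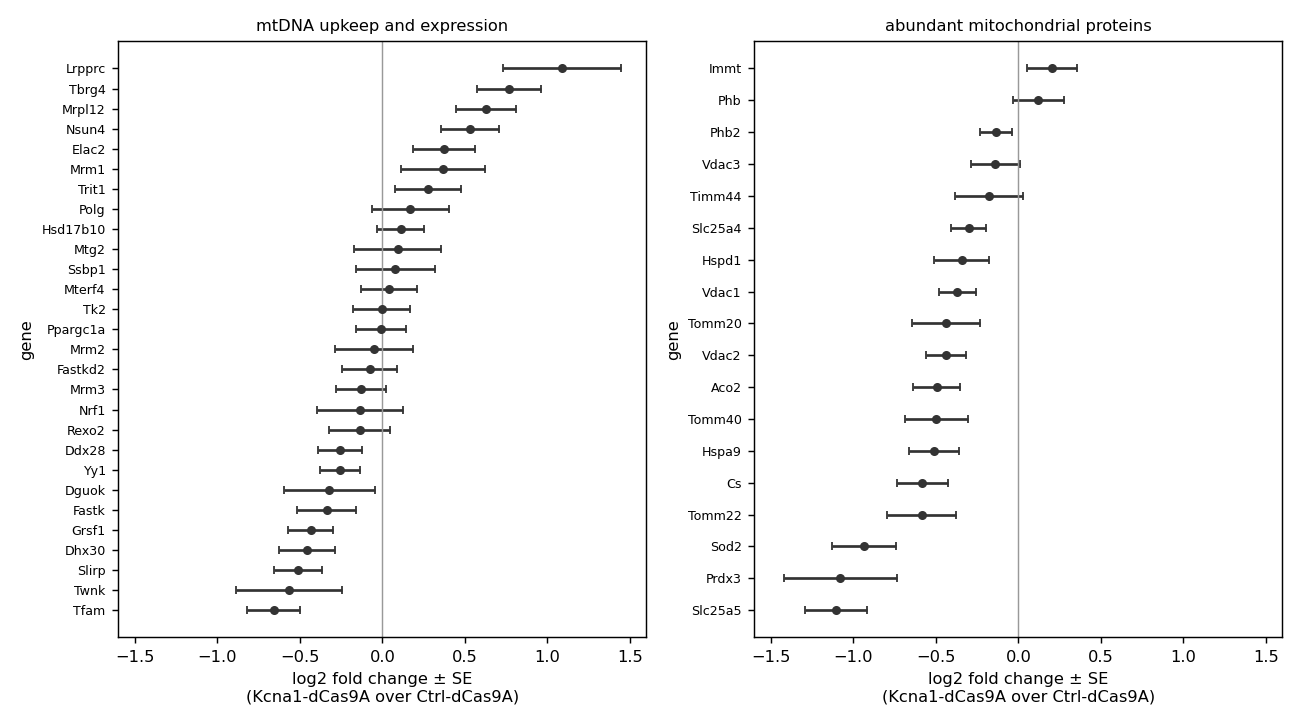
Log2 fold changes (Kcna1-dCas9A over Ctrl-dCas9A) with standard errors from limma are plotted for the listed nuclear genes averaging 10 or more, for mitochondrial DNA upkeep and expression (left, 28 genes) and for abundant mitochondrial proteins (right, 18 genes). The left list runs from Tfam at -0.66 to Lrpprc at 1.09, and the right list from Slc25a5 at -1.11 to Immt at 0.20.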

How the data were processed

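QuantSeq 3′ mRNA libraries were analysed, 3 per group as given by the sample titles. The authors deposited 1 score per gene, taken here as a scaled value rounded to whole numbers, since every library sums to nearly the same total. For these libraries the study's methods name Bowtie2 and NCBI37/mm9, whereas the submitters' processing notes name STAR 2.7, featureCounts, DESeq2 and mm10. Counting options, strand setting and annotation are not given in the sources used here. All 37 members have the same start and end in GENCODE vM1 (NCBIM37) and in the RefSeq table of GRCm38.p6.

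Genes above 0 in at least 1 library were fitted with limma 3.58.1 (R 4.3.3) on log2(value + 1) with an intensity trend and no term other than the group, and p-values were adjusted by Benjamini-Hochberg. Log2 fold changes on this scale understate the change of low genes. Sums and ratios were compared with two-sided exact permutation tests. On simulated data 173 of 200 changes of 1.5 on the log2 scale were recovered (3 other genes passed) and 0 of 200 of 0.6, so that changes of that size can be missed. Nuclear copies were aligned with megablast (BLAST 2.17.0, at least 80% identity). Named were all members, *Kcna1*, Gm42418, and of each nuclear list the genes that passed, or else the highest and the lowest with a mean of at least 10. Other genes are named as chosen after their values were seen. The members and lists were chosen with earlier results of these data known.

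Replicate numbers come from the titles. Deviations of same-numbered libraries correlated at 0.013, 0.030 and 0.047, so that the numbers were not treated as pairs. The alternatives were other scalings, filters and pseudocounts, no trend, a replicate block and each library left out. Sums without mt-Nd4, Tubb3 or Map2 were added after seeing the data.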

Additional observations from a re-analysis of the deposited data

How the results depend on the processing

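The number of mitochondrially encoded genes with an adjusted p under 0.05 from limma was 0 as reported, 2 with median-of-ratios factors (mt-Nd4 higher and mt-Co1 lower), 5 with scaling to the genes other than the mitochondrially encoded ones and Gm42418, and 4 when only genes averaging 1 or more were fitted. With each library left out it ranged from 0 to 4, and was above 0 only without Ctrl-dCas9A replicate 3 (mt-Nd4 higher, mt-Rnr2, mt-Co1 and mt-Cytb lower). For the genes of mitochondrial DNA upkeep and expression the number was 0 as reported, 3, 5 and 2 under these settings, and 0 to 5 with a library left out. For abundant mitochondrial proteins it was 0 as reported, 2, 5 and 2, 1 with a pseudocount of 0.1, and 0 to 7 with a library left out, the highest again without Ctrl-dCas9A replicate 3. Over all genes, 226 passed as reported, 1721 with median-of-ratios factors, 1807 with the other scaling, 1543 with the mean filter, 627 with the lower pseudocount, and from 0 to 2711 with a library left out, where 2711 is without Ctrl-dCas9A replicate 3 and the others gave 0. The cause was not tested.

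The log2 ratio of the mRNA sums was 0.28 and turned to -0.11 without mt-Nd4, and that of the rRNA to mRNA ratio was -0.96 and moved to -0.53, by construction. The other sums moved by less than the SD between replicates under every scaling, block and left-out library. With a library left out, the log2 ratio ranged from -0.70 to -0.53 for the rRNAs from 0.19 to 0.43 for the mRNAs and from -0.49 to -0.09 for the tRNAs. mt-Nd5, at 0.0061, turned to -0.023 with scaling to the other genes and ranged from -0.087 to 0.13 with a library left out. *Kcna1* had a log2 fold change of 1.83 as reported and without a filter on low values, where the adjusted p from limma was 0.089 in place of 0.034, and from 1.73 to 1.99 with a library left out, where it passed only without Ctrl-dCas9A replicate 3. Under the replicate block, *Kcna1* was again at 1.83 (limma adjusted p = 0.11), and no gene passed (0 of all tested). The depth behind the values is unknown, so that no counting error can be given.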
